A study of Mus musculus with 8 samples.

Results

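A set of 10 genes of embryonic blood and endothelium was followed across 8 arrays of mouse embryonic stem (ES) cells. They were chosen by name, as every probe set whose only gene symbol in the platform's annotation was Hbb-bh1, Hbb-y, Hba-x, Tal1, Gata1, Lmo2, Etv2, Kdr, Pecam1 or Cdh5. All 10 genes were on the array, with 15 probe sets, out of 18194 genes and 45101 probe sets in all. The arrays were Affymetrix mouse genome 430 2.0 chips, which read each transcript as the brightness of a set of short probes. The 4 groups, with 2 arrays each, were Rbp2-/- cells after 6 days without leukemia inhibitory factor (LIF), Rbp2f/f cells after 6 days without LIF, Rbp2-/- cells with LIF and Rbp2f/f cells with LIF. LIF is a cytokine added to the medium to hold mouse ES cells in the undifferentiated state. Rbp2f/f cells carry floxed copies of the gene for RBP2, read here as the histone H3 lysine 4 demethylase now named Kdm5a, and Rbp2-/- cells lack the intact gene. The labels call each pair biological replicates but name no culture, clone or passage, so the p-values reflect only how far these particular arrays differ, part of which may be technical.

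The first blood cells of the mouse embryo are primitive erythroblasts of the yolk sac, which arise from extraembryonic mesoderm next to the first endothelial cells. Mesoderm with the VEGF receptor Kdr can give rise to both. Etv2, an ETS factor that is switched on briefly, starts the blood and endothelial programme, and Tal1, Lmo2 and Gata1 form a DNA-binding complex that drives erythroid genes. Primitive erythroblasts fill with embryonic haemoglobin, built from the beta-like chains of Hbb-bh1 and Hbb-y and the alpha-like zeta chain of Hba-x. In mouse, Hbb-bh1 predominates in early primitive erythroblasts and Hbb-y in later ones. Pecam1 and Cdh5 encode adhesion molecules of endothelial junctions, and Pecam1 is also found on undifferentiated mouse ES cells.

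RefSeq promoter windows, from 250 bases before to 50 bases after a gene's start, were held for 6 of the 10 members. They are shown for the 3 of these, a pair of globins and Kdr, picked by their brightest probe set. On it all arrays without LIF read above those with LIF within each genotype. For Hbb-y in Rbp2f/f this rests on 0.6 against 0.4, near the floor of the arrays. Another Hbb-y probe set read 1.2 on the same array without LIF, below the 1.8 and 1.6 of Rbp2f/f with LIF. In the globin windows capitals mark matches on either strand to GATAA, the core read by GATA factors, and CACCC, the core read by KLF factors. In the Kdr window they mark GGAA, the core read by ETS factors. The windows are from build GRCm38.p6 and are written along the gene's own strand.
Hbb-y (chr7:103853158-103853457, minus strand): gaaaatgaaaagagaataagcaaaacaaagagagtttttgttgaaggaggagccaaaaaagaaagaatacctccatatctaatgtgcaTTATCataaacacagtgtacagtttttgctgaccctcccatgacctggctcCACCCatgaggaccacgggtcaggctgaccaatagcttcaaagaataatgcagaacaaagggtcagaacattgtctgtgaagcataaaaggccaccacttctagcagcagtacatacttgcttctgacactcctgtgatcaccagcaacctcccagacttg
Hba-x (chr11:32276350-32276649, plus strand): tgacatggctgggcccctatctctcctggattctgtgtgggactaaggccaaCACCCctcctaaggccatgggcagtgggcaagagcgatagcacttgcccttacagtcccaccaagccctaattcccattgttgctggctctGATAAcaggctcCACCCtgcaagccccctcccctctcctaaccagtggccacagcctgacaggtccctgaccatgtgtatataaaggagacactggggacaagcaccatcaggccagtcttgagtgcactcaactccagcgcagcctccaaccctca
Kdr (chr5:75978406-75978705, minus strand): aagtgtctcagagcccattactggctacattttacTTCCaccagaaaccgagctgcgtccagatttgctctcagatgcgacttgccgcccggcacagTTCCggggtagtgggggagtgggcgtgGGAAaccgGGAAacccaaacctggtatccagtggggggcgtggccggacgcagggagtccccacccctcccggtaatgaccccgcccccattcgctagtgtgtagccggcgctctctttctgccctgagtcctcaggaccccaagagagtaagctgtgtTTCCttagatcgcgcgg
The Hbb-y window held 1 GATAA match, whose first base lies at -162 from the start, and 1 CACCC match at -111. The Hba-x window held 1 GATAA match at -107 and 2 CACCC matches at -198 and -95. Over 32851 promoter windows of 300 bases in the RefSeq table, 25.4% held GATAA and 57.5% held CACCC. The Kdr window held 5 GGAA matches, a motif found in 96.0% of all windows. It also held 1 CACCC match at -65, not set in capitals, and no GATAA. The Hba-x window held 1 GGAA match at -127 and the Hbb-y window 0, likewise not marked. The E-box CANNTG, read by Tal1 with its partners, was present 2 times in the Hba-x window, 1 time in the Kdr window and 0 times in the Hbb-y window, against 72.3% of all windows. No match overlapped a match to another of the 4 motifs in the globin windows. These matches describe the letters only.

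The arrays were of uneven brightness. The 2% trimmed mean intensity was 77.5 on replicate 2 of Rbp2-/- with LIF and 110.5 to 128.4 on the other 7. That array lowers the with-LIF mean of Rbp2-/-, and the median difference over all tested genes was 0.39 on the log2 scale for withdrawal in Rbp2-/- and -0.28 for the genotype comparison with LIF, against 0.07 for withdrawal in Rbp2f/f and 0.02 for the genotype comparison without LIF. Kdm5a, the targeted gene, read 100.0 and 80.2 in Rbp2-/- without LIF against 225.7 and 246.6 in Rbp2f/f without LIF. With LIF it read 31.2 and 30.6 in Rbp2-/- against 128.2 and 167.2 in Rbp2f/f. Its signal was lower on each Rbp2-/- array than on either Rbp2f/f array in the same medium, with a log2 difference of -1.25 ± 0.26 without LIF (limma adjusted p = 0.091) and -1.79 ± 0.26 with LIF (limma adjusted p = 0.022), and where its probes lie relative to the deleted part was not examined. All 8 markers of undifferentiated ES cells in the list used, Pou5f1 and Esrrb among them, were lower without LIF in both genotypes, with a median difference of -2.40 in Rbp2-/- and -2.23 in Rbp2f/f.

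The embryonic globins were near the bottom of the intensity scale on every array with LIF and Hbb-bh1 was bright on 3 of the 4 arrays without it. Hbb-bh1 has 3 probe sets and Hbb-y 3, and Hba-x has 1. Over these 7 probe sets and the 4 arrays with LIF, intensities lay between 0.2 and 7.7. Without LIF the highest of the 7 was 334.8 on replicate 1 and 343.3 on replicate 2 of Rbp2-/-, against 808.5 on replicate 1 and 13.8 on replicate 2 of Rbp2f/f. In an RNA sample of many cells, more cells of a type and more RNA per cell cannot be told apart.

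**Figure D1:**
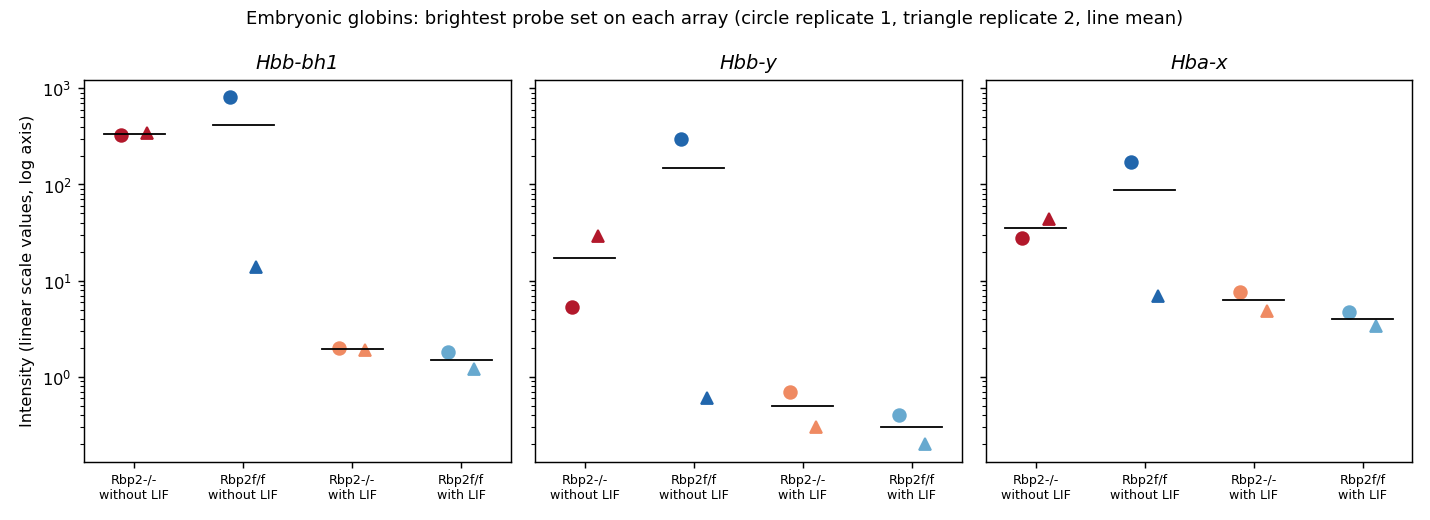
Intensity of the brightest probe set of Hbb-bh1, Hbb-y and Hba-x on each of the 8 arrays, on a log axis, with circles for replicate 1, triangles for replicate 2 and a line at the mean of each pair. Arrays with LIF lie at 7.7 or below for the 3 genes, and replicate 2 of Rbp2f/f without LIF lies far below the other 3 arrays without LIF.

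Hbb-bh1, the early beta-like chain, gave the largest withdrawal differences of the 8 tested members. Its brightest probe set read 327.4 and 343.3 in Rbp2-/- without LIF and 808.5 and 13.8 in Rbp2f/f without LIF, against 2.0 and 1.9 in Rbp2-/- with LIF and 1.8 and 1.2 in Rbp2f/f with LIF. All 4 arrays without LIF were above all 4 with LIF. The low Rbp2f/f array, at 13.8, was above the highest array with LIF, at 2.0, but both values are near the floor of the arrays. On the low Rbp2f/f array the probe set stood at the 41.1 percentile of all probe sets, and on the other arrays without LIF between the 87.5 and 95.0 percentile. The log2 difference on withdrawal was 4.29 ± 0.91 in Rbp2-/- (SE; limma adjusted p = 0.0046, and 3.90 once the all-gene median is subtracted), and 3.16 ± 0.91 in Rbp2f/f (limma adjusted p = 0.024). Hbb-bh1 passed the filter on dim genes only through arrays without LIF. With no filter the Rbp2-/- difference passed (limma adjusted p = 0.042) and the Rbp2f/f difference did not (limma adjusted p = 0.11). The other Hbb-bh1 probe sets had the same 3 bright arrays, at 334.8 and 336.8 or 272.5 and 240.2 in Rbp2-/- without LIF against 672.4 and 8.0 or 634.4 and 4.3 in Rbp2f/f without LIF.

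The call in Rbp2f/f rests on replicate 1 of that group. Without it the difference was 0.77 ± 0.40 (limma adjusted p = 0.24). A fit that omits an array leaves 1 in its group, which is then assumed to vary like the arrays of the other groups, so its p-value holds no measure of that group's own spread. Over the 15 alternatives tried the adjusted p ran from 6.3e-10, in the fit without replicate 2 of the same group, to 0.24, with 6 passing. After quantile normalization the Rbp2f/f difference missed the threshold (limma adjusted p = 0.066) and the Rbp2-/- difference passed it (limma adjusted p = 0.037). In Rbp2-/- the difference passed in 14 of 15 alternatives, the exception being the fit without replicate 2 of Rbp2-/- with LIF, where it was 4.29 ± 1.43 (limma adjusted p = 0.072, in a range from 1.1e-09 without replicate 2 of Rbp2f/f lacking LIF). The other globins too passed the filter, a mean of 28.3, only through arrays without LIF, so that their being tested already implies a difference between arrays.

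Hbb-y, the beta-like chain of later primitive erythroblasts, lies in the same beta-globin cluster as Hbb-bh1. Its brightest probe set read 5.3 and 28.9 in Rbp2-/- without LIF and 296.8 and 0.6 in Rbp2f/f without LIF, against 0.7 and 0.3 in Rbp2-/- with LIF and 0.4 and 0.2 in Rbp2f/f with LIF. Only replicate 1 of Rbp2f/f without LIF was bright, and replicate 2 of that group was within the range of the arrays with LIF. The withdrawal difference was 0.91 ± 0.86 in Rbp2-/- (limma adjusted p = 0.46) and 2.14 ± 0.86 in Rbp2f/f (limma adjusted p = 0.092), neither past the threshold. The Rbp2f/f difference was 4.26 without replicate 2 of Rbp2f/f lacking LIF and 0.026 without replicate 1, each resting on a single array. The second probe set read alike, with 3.7 and 32.5 in Rbp2-/- without LIF against 282.4 and 0.6 in Rbp2f/f without LIF. Both of these, like the brightest probe set of Hbb-bh1, carry the suffix _x_at. By it the manufacturer marks sets whose probes may also bind related transcripts. The third Hbb-y probe set, without that suffix, read 3.1 and 1.9 in Rbp2-/- without LIF against 139.3 and 1.2 in Rbp2f/f without LIF. The Hbb-y signal of 28.9 in replicate 2 of Rbp2-/- was thus not seen by every probe set.

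Hba-x, the zeta chain, read 27.7 and 43.5 in Rbp2-/- without LIF and 169.7 and 6.9 in Rbp2f/f without LIF, against 7.7 and 4.9 in Rbp2-/- with LIF and 4.7 and 3.4 in Rbp2f/f with LIF. The arrays without LIF were above those with LIF within each genotype, by a narrow margin for the 6.9. The withdrawal difference was 1.20 ± 0.63 in Rbp2-/- (limma adjusted p = 0.18, and 0.81 once the all-gene median is subtracted), and 1.70 ± 0.63 in Rbp2f/f (limma adjusted p = 0.070). The Rbp2f/f difference was 3.21 without replicate 2 of Rbp2f/f lacking LIF and 0.19 without replicate 1, again from a single array each.

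The globins did not keep the same proportions on the arrays where they were bright. Taking replicate 1 of Rbp2f/f without LIF, the brightest array for each of the 7 probe sets, as the whole, Hbb-bh1 stood at 40.5% and 42.5% of it in Rbp2-/- replicates 1 and 2, Hba-x at 16.3% and 25.6%, and Hbb-y at 1.79% and 9.74%. The Hbb-y probe set without the _x_at suffix gave 2.23% and 1.36%. The Hbb-bh1 probe sets without it gave 49.8% and 50.1%, or 43.0% and 37.9%. Shares compare a probe set with itself, and no level was compared between genes. Dim readings carry background signal of unknown size, so shares of a few percent, Hbb-y among them, are imprecise.

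Of the 4 transcription factors of the programme, Etv2 in Rbp2f/f was the only one called on withdrawal. Tal1, the basic helix-loop-helix factor needed for all blood, read 10.1 and 26.6 in Rbp2-/- without LIF and 17.1 and 10.7 in Rbp2f/f without LIF, against 13.1 and 4.5 in Rbp2-/- with LIF and 12.5 and 19.5 in Rbp2f/f with LIF. The groups overlapped, and with a mean below the filter Tal1 was not in the main test. With no filter its withdrawal difference was 0.45 ± 0.29 in Rbp2-/- (limma adjusted p = 0.38) and -0.10 ± 0.29 in Rbp2f/f (limma adjusted p = 0.90).

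Gata1, the zinc-finger factor that activates globin genes, read 26.2 and 48.3 in Rbp2-/- without LIF and 50.0 and 42.3 in Rbp2f/f without LIF, against 32.5 and 24.3 in Rbp2-/- with LIF and 35.3 and 36.1 in Rbp2f/f with LIF. Its 8 values stayed within a narrow band, and the array with the brightest globins also had the highest Gata1. The withdrawal difference was 0.24 ± 0.30 in Rbp2-/- (limma adjusted p = 0.58) and 0.26 ± 0.30 in Rbp2f/f (limma adjusted p = 0.58). The direction in Rbp2-/- turned to -0.087 after quantile normalization.

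Lmo2, the LIM-domain protein that bridges Tal1 and Gata1, read 27.9 and 119.1 in Rbp2-/- without LIF and 97.1 and 127.1 in Rbp2f/f without LIF, against 5.4 and 50.3 in Rbp2-/- with LIF and 18.4 and 44.6 in Rbp2f/f with LIF. In Rbp2f/f both arrays without LIF were above both with LIF, and in Rbp2-/- the groups overlapped. The difference was 1.03 ± 0.52 in Rbp2-/- (limma adjusted p = 0.16, and 0.64 once the all-gene median is subtracted), and 1.48 ± 0.52 in Rbp2f/f (limma adjusted p = 0.057). Replicate 2 was the brighter Lmo2 array in each of the 4 groups.

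Etv2, the ETS factor that opens the programme, read 38.9 and 67.1 in Rbp2-/- without LIF and 53.3 and 27.2 in Rbp2f/f without LIF, against 69.5 and 46.3 in Rbp2-/- with LIF and 96.3 and 82.6 in Rbp2f/f with LIF. It was brightest in Rbp2f/f cells with LIF. Withdrawal lowered it in Rbp2f/f, with a log2 difference of -0.94 ± 0.31 (limma adjusted p = 0.046), and in Rbp2-/- the difference was -0.11 ± 0.31 (limma adjusted p = 0.82). The Rbp2-/- difference was -0.50 once the all-gene median is subtracted, and -0.52 ± 0.27 after quantile normalization (limma adjusted p = 0.23). The Rbp2f/f call was held in 10 of 15 alternatives and lost with no filter on dim genes, with a smaller pseudocount, or without any 1 of replicate 1 or 2 of Rbp2f/f with LIF and replicate 2 of Rbp2f/f without LIF, in a range of adjusted p from 0.016 to 0.44. Without the last of these the difference was -0.60. The interaction did not separate the genotypes (0.83 ± 0.45, limma adjusted p = 0.47).

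**Figure D2:**
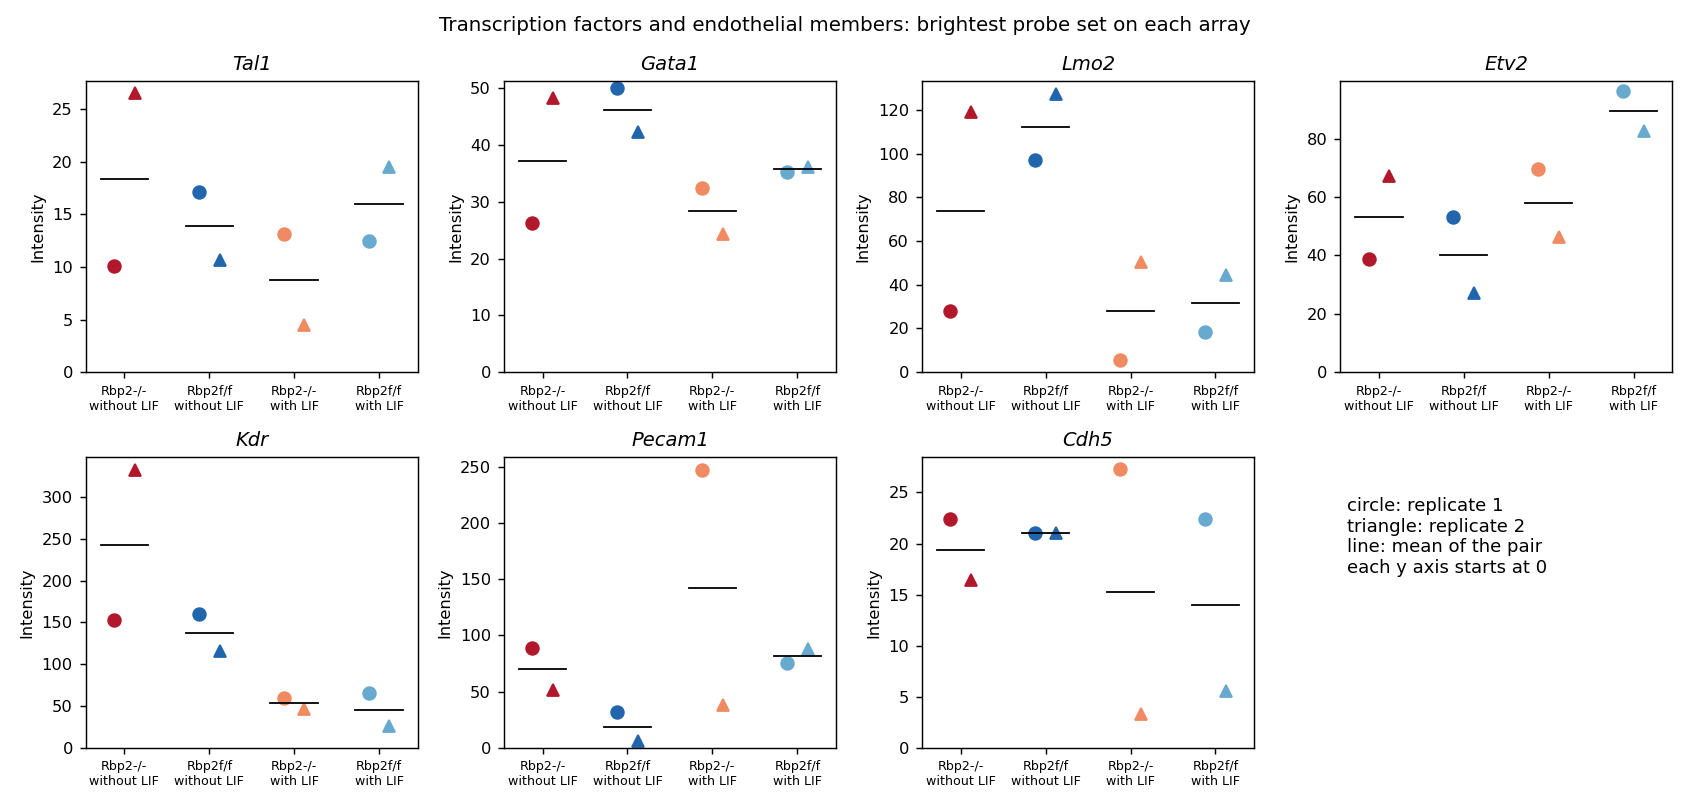
Intensity of the brightest probe set of Tal1, Gata1, Lmo2, Etv2, Kdr, Pecam1 and Cdh5 on each array, on linear axes that start at 0, with circles for replicate 1, triangles for replicate 2 and a line at the mean of each pair. Kdr is higher on each of the 4 arrays without LIF, from 115.7 to 333.0, than on the 4 arrays with LIF, from 26.0 to 65.0.

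Kdr, the receptor for VEGFA and a marker of the mesoderm that yields blood and vessels, rose in both genotypes. It read 153.4 and 333.0 in Rbp2-/- without LIF and 160.1 and 115.7 in Rbp2f/f without LIF, against 59.8 and 46.9 in Rbp2-/- with LIF and 65.0 and 26.0 in Rbp2f/f with LIF. No array without LIF overlapped the arrays with LIF. The log2 difference was 1.82 ± 0.37 in Rbp2-/- (limma adjusted p = 0.0032, and 1.43 once the all-gene median is subtracted), and 1.39 ± 0.37 in Rbp2f/f (limma adjusted p = 0.015). The call held after quantile normalization (limma adjusted p = 0.030 and 0.034). In Rbp2-/- it held in all 15 alternatives, with adjusted p from 0.00052 to 0.049. In Rbp2f/f it held in 12, with adjusted p from 0.005 to 0.16, and was lost without replicate 2 of Rbp2f/f with LIF (0.16, at a difference of 0.91), without replicate 1 of Rbp2f/f lacking LIF (0.090) and with no filter (0.069). Kdr was above the arrays with LIF both on the Rbp2f/f array with little globin signal, at 115.7, and on the one with the most, at 160.1.

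Pecam1, an adhesion molecule shared by endothelium and ES cells, read 88.4 and 51.0 in Rbp2-/- without LIF and 32.1 and 5.6 in Rbp2f/f without LIF, against 246.9 and 37.6 in Rbp2-/- with LIF and 75.0 and 87.5 in Rbp2f/f with LIF. The 2 Rbp2-/- arrays with LIF were the highest and the third lowest readings among the 8, and the Rbp2-/- groups overlapped. Both Rbp2f/f arrays without LIF were below both with LIF. The withdrawal difference was -0.51 ± 0.55 in Rbp2-/- (limma adjusted p = 0.52, and -0.89 once the all-gene median is subtracted), and -1.59 ± 0.55 in Rbp2f/f, just outside the threshold (limma adjusted p = 0.052). It passed in 8 of 15 alternatives in Rbp2f/f, with adjusted p from 0.0039 to 0.32. In Rbp2-/- the difference was -1.65 when replicate 2 of the arrays with LIF was omitted and 0.64 when replicate 1 was, each set against a single array and given without a test.

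Cdh5, the VE-cadherin of endothelial junctions, stayed dim throughout. Its 2 probe sets read between 3.3 and 27.4 over the 8 arrays. The brighter gave 22.4 and 16.4 in Rbp2-/- without LIF and 21.0 and 21.0 in Rbp2f/f without LIF, against 27.3 and 3.3 in Rbp2-/- with LIF and 22.4 and 5.6 in Rbp2f/f with LIF. The groups overlapped, and Cdh5 did not reach the main test. With no filter the withdrawal difference was 0.29 ± 0.39 in Rbp2-/- (limma adjusted p = 0.70) and 0.36 ± 0.39 in Rbp2f/f (limma adjusted p = 0.65).

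Counted together, 8 of the 10 members entered the test over 10916 genes. On withdrawal in Rbp2-/- 2 of the 8 were called, Hbb-bh1 and Kdr, both higher, where 23% of all tested genes were called (19.7% higher and 3.33% lower). In Rbp2f/f 3 of the 8 were called, Hbb-bh1 and Kdr higher and Etv2 lower, where 20.4% of all tested genes were (13.4% higher and 6.97% lower). With 8 members, counts this near the background are not a result about the members. By the order of the arrays alone, 4 of the 10 members read higher without any overlap and 0 lower on withdrawal in Rbp2-/-, against 42.6% and 8.9% of all genes. In Rbp2f/f 6 read higher and 2 lower, against 29.9% and 26.2%. These 6 include the 3 globins, whose lower Rbp2f/f array without LIF read 13.8 for Hbb-bh1, 0.6 for Hbb-y and 6.9 for Hba-x. Values under about 20 are near the floor, so that order is not resolved, and with 10 members nothing is read from the counts.

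**Figure D3:**
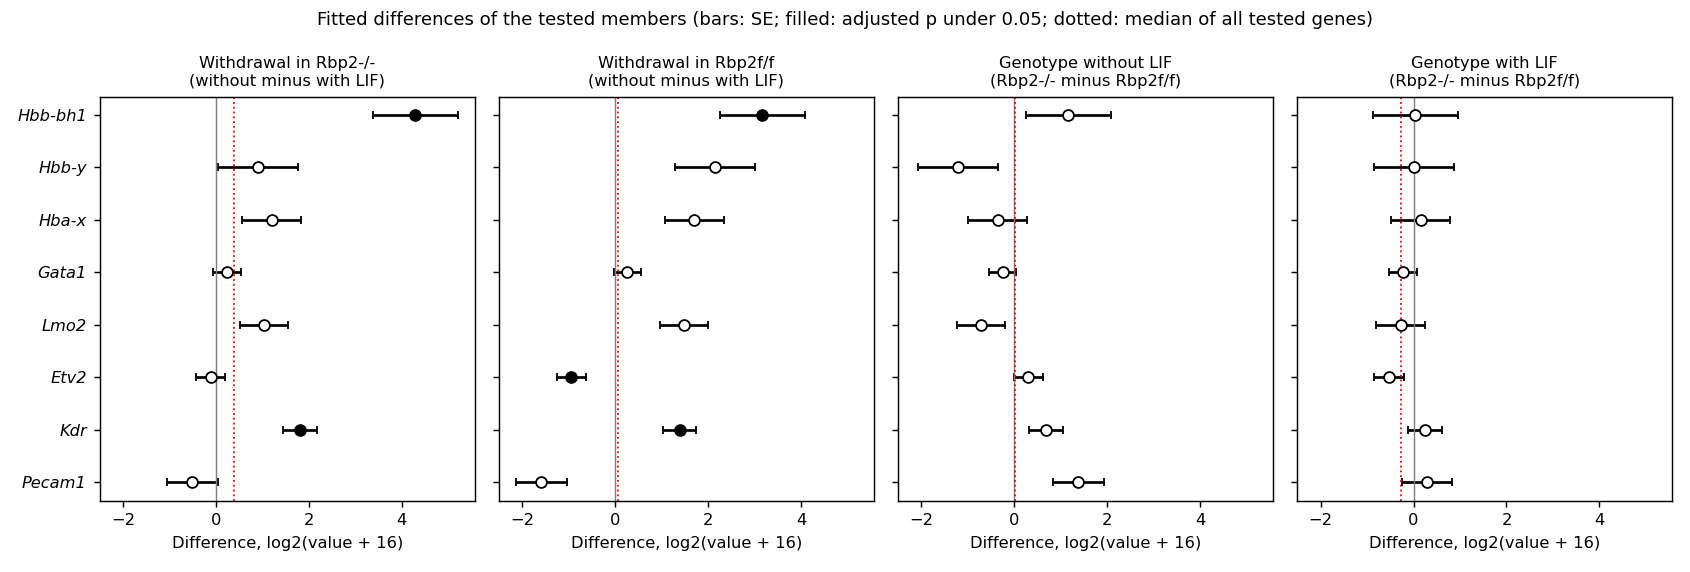
Fitted differences on the log2(value + 16) scale for the 8 tested members in the withdrawal and genotype comparisons, with standard errors as bars, filled points where the limma adjusted p was under 0.05 and a dotted line at the median of all tested genes. Filled points appear for Hbb-bh1 and Kdr in both withdrawal panels and for Etv2 in Rbp2f/f, and none in the genotype panels.

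The genotype comparisons ask whether loss of RBP2 changed these genes in either medium. With LIF 0 of the 8 tested members were called by limma, 0 had an unadjusted p under 0.05 and 0.257% of all tested genes were called. Differences ran from -0.53 for Etv2 to 0.29 for Pecam1, before the all-gene median of -0.28 is taken into account. Of the 10 members 2 read higher (Hbb-bh1 and Hba-x, both dim there) and 2 lower (Gata1 and Etv2) without overlap in Rbp2-/-, against 6.85% and 32.7% of all genes.

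Without LIF again 0 of the 8 were called by limma, with 1 at an unadjusted p under 0.05 and 0.0275% of all tested genes called. That 1 was Pecam1, at 1.38 ± 0.55 (limma adjusted p = 0.39), and it was also the only member whose arrays did not overlap, higher in Rbp2-/- where 26.9% of all genes were, and 0 were lower, against 19.5%. The others ran from -1.22 ± 0.86 for Hbb-y to 1.16 ± 0.91 for Hbb-bh1. For both of these the result turned on which Rbp2f/f array was kept. The difference for Hbb-bh1 was 3.56 without replicate 1 of Rbp2f/f lacking LIF and -1.23 without replicate 2. Hbb-y gave 0.90 in the first case and -3.34 in the second, and Hba-x gave 1.16 and -1.87. Each of these sets 2 Rbp2-/- arrays against a single Rbp2f/f array, so no test is given. For each of the 3 globins both Rbp2-/- arrays without LIF lay between the 2 Rbp2f/f arrays without LIF.

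The withdrawal effects of the genotypes were compared by their interaction, which called 0 of the 8 members and 0 of the 10916 genes by limma, with 0 members and 1266 genes at an unadjusted p under 0.05. Interaction values ran from -1.24 ± 1.22 for Hbb-y to 1.13 ± 1.29 for Hbb-bh1, with adjusted p from 0.47 to 0.98. The Hbb-bh1 interaction was 3.52 without replicate 1 of Rbp2f/f lacking LIF and -1.27 without replicate 2, and the Pecam1 interaction was 2.23 when replicate 1 of the Rbp2-/- arrays with LIF was omitted and -0.062 when replicate 2 was. With 1 array left in the group, these are given without a test.

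The other genes of erythroid cells were read next. The erythroid list of haem enzymes, membrane proteins, receptors and adult globins had 13 genes on the array, 7 of them tested, and 0 of 7 were called by limma on withdrawal in either genotype (0.087 was the lowest adjusted p), where 23% of all tested genes were in Rbp2-/- and 20.4% in Rbp2f/f. At an unadjusted p under 0.05 there was 1 in Rbp2-/- and 0 in Rbp2f/f. With 7 genes this is near the background. Their median difference was 0.51 in Rbp2-/- against 0.39 for all tested genes, and -0.14 in Rbp2f/f against 0.07. After quantile normalization 1 gene was lower in each genotype, Tfrc, the transferrin receptor, in Rbp2-/- (-0.52 ± 0.14, limma adjusted p = 0.032) and Urod, a haem enzyme, in Rbp2f/f (-0.55 ± 0.18, limma adjusted p = 0.045), both named after their values were seen. Of the 13, 5 were under 20 on every array, and these are named after their values were seen. Alas2, the first enzyme of haem synthesis in red cells, lay between 0.9 and 3.8. Rhag and Slc4a1, red cell membrane proteins, reached at most 7.6 and 13.8, Epb42, a protein of the red cell skeleton, 9.4, and Hbb-b2, an adult beta globin, 17.6. The summed intensity of the list was 2157.2 and 2513.2 in Rbp2-/- without LIF and 2397.2 and 2412.5 in Rbp2f/f without LIF, against 2626.3 and 1790.3 in Rbp2-/- with LIF and 3095.9 and 2974.2 in Rbp2f/f with LIF. Tfrc at 1165.3 to 1885.9, Urod at 252.3 to 730.4 and Cpox at 153.7 to 284.8, genes that many cells use and named after their values were seen, make up most of this sum.

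Endothelial genes other than the members went both ways. Of 26 on the array 13 were tested, and on withdrawal in Rbp2-/- 3 were higher and 2 lower, while in Rbp2f/f 2 were higher and 2 lower. The shares of all tested genes were 19.7% higher and 3.33% lower in Rbp2-/-, and 13.4% and 6.97% in Rbp2f/f, and with 13 genes nothing is read from the counts. After quantile normalization these counts were 1 and 3 in Rbp2-/-, and 2 and 3 in Rbp2f/f. The list median was 0.33 in Rbp2-/- against 0.39 for all tested genes and -0.35 in Rbp2f/f against 0.07. Flt1, another VEGF receptor, rose in Rbp2-/- by 2.12 ± 0.27 (limma adjusted p = 0.00015). It read 79.4 and 84.6 in Rbp2-/- without LIF and 73.6 and 102 in Rbp2f/f without LIF, against 7.2 and 5.9 in Rbp2-/- with LIF and 44.9 and 54 in Rbp2f/f with LIF. With LIF it was lower in Rbp2-/-, with a difference of -1.53 ± 0.27 (limma adjusted p = 0.031, and -1.26 once the all-gene median is subtracted), and after quantile normalization this missed the threshold (limma adjusted p = 0.071).

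Sox17, a factor of endoderm and arterial endothelium, rose by 1.12 ± 0.32 in Rbp2-/- (limma adjusted p = 0.021; 0.066 after quantile normalization) and by 2.59 ± 0.32 in Rbp2f/f (limma adjusted p = 8.3e-05). Sox17 read 11.9 or less on each array with LIF, so it passed the filter on dim genes only through arrays without LIF. Ecscr, an endothelial surface protein, rose by 1.12 ± 0.31 in Rbp2f/f (limma adjusted p = 0.018). Plvap, a protein of endothelial fenestrae, fell in both, with differences of -1.57 ± 0.34 in Rbp2-/- (limma adjusted p = 0.0053) and -1.65 ± 0.34 in Rbp2f/f (limma adjusted p = 0.0037). Esam, a junction molecule, fell in Rbp2-/-, with a difference of -1.66 ± 0.35 (limma adjusted p = 0.0042), and Tek, the angiopoietin receptor, in Rbp2f/f, with one of -1.43 ± 0.41 (limma adjusted p = 0.023). Of the 26, 8 were under 20 on every array, among them Tie1, a receptor of nearly all endothelium, at 3.7 or less, Icam2 at 3.3 or less and Vwf at 7.2 or less, again named after their values were seen. The highest readings of the list were 199.1 for Egfl7, 153.6 for Sox17 and 141.4 for Eng, each on its brightest array and likewise named after the values were seen.

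**Figure D4:**
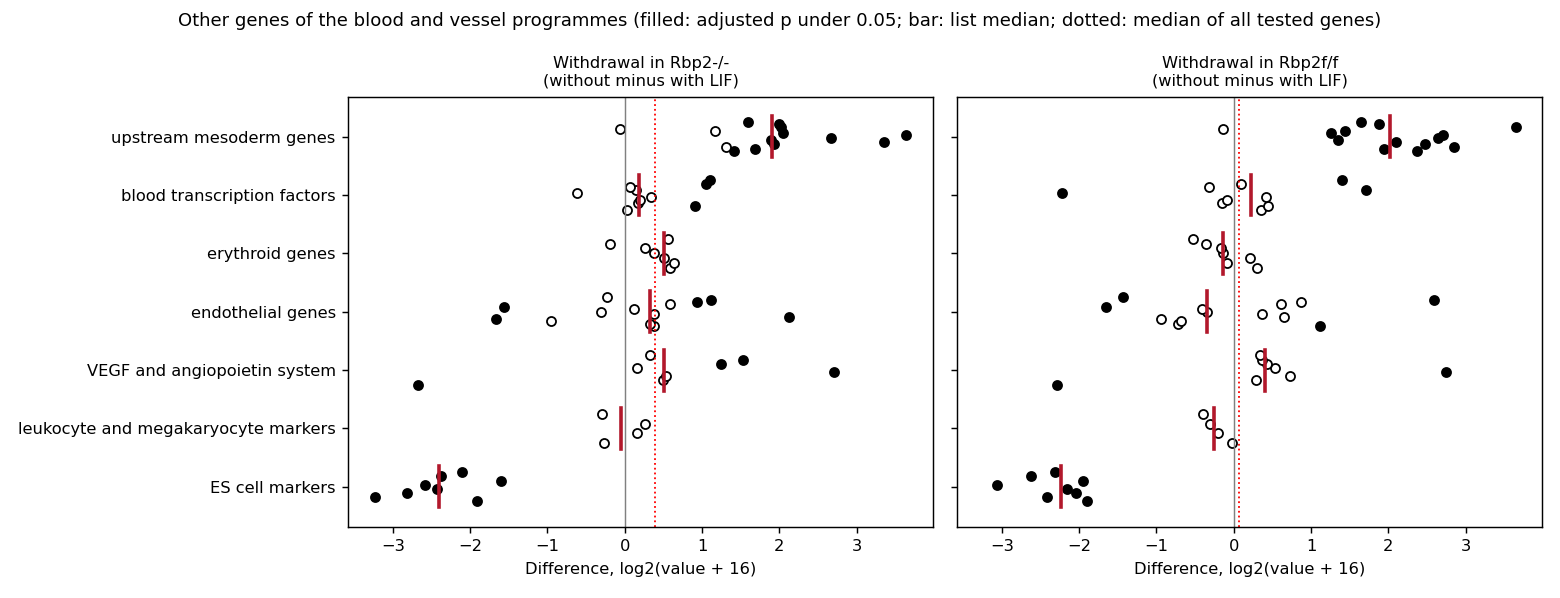
Withdrawal differences on the log2(value + 16) scale for each tested gene of 7 lists in Rbp2-/- (left) and Rbp2f/f (right), filled where the limma adjusted p was under 0.05, with a bar at the list median and a dotted line at the median of all tested genes. Most mesoderm genes lie to the right and ES cell markers to the left in both genotypes, while the erythroid list has no filled point.

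Among other transcription factors of blood, 19 were on the array and 10 tested. On withdrawal 3 were higher in Rbp2-/- and 0 lower, and 2 were higher and 1 lower in Rbp2f/f. Of all tested genes 19.7% were higher and 3.33% lower in Rbp2-/-, and 13.4% and 6.97% in Rbp2f/f, and with 10 genes these counts are near the background. Zfpm1, the Gata1 cofactor known as FOG1, rose in both, by 1.11 ± 0.27 in Rbp2-/- (limma adjusted p = 0.010) and 1.41 ± 0.27 in Rbp2f/f (limma adjusted p = 0.0025). Runx1, which is needed for definitive blood, rose in Rbp2f/f by 1.71 ± 0.35 (limma adjusted p = 0.0034), reading 96.2 and 111.8 in Rbp2f/f without LIF against 28.9 and 13.7 in Rbp2f/f with LIF. It read 48.7 and 91.8 in Rbp2-/- without LIF against 39.1 and 87.9 in Rbp2-/- with LIF. In Rbp2-/- Cbfb, the partner of Runx1, rose by 0.91 ± 0.27 (limma adjusted p = 0.028) and Tcf3, a partner of Tal1, by 1.05 ± 0.34 (limma adjusted p = 0.039; 0.096 after quantile normalization). Myb, a factor of definitive progenitors, fell in Rbp2f/f, with a difference of -2.22 ± 0.36 (limma adjusted p = 0.00068). The list median was 0.19 in Rbp2-/-, below the 0.39 of all tested genes, and 0.23 in Rbp2f/f against 0.07.

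The VEGF and angiopoietin system had 16 genes on the array and 8 tested, with 3 higher and 1 lower in Rbp2-/- and 1 higher and 1 lower in Rbp2f/f. Of all tested genes 19.7% were higher and 3.33% lower in Rbp2-/-, and 13.4% and 6.97% in Rbp2f/f. With 8 genes nothing is read from the counts. The list median was 0.51 in Rbp2-/- against 0.39 for all tested genes, and 0.40 in Rbp2f/f against 0.07. Nrp1, a co-receptor of Kdr, rose by 2.71 ± 0.45 in Rbp2-/- (limma adjusted p = 0.00092) and 2.75 ± 0.45 in Rbp2f/f (limma adjusted p = 0.00068). The ligands Vegfb and Vegfa rose in Rbp2-/- by 1.54 ± 0.34 and 1.25 ± 0.33 (limma adjusted p = 0.0059 and 0.015), and for Vegfa this was lost after quantile normalization (0.14). Angptl4, a secreted inhibitor of lipoprotein lipase, fell in both, with differences of -2.68 ± 0.40 in Rbp2-/- (limma adjusted p = 0.00045) and -2.29 ± 0.40 in Rbp2f/f (limma adjusted p = 0.0011).

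Genes of a mesoderm list, some of them also of paraxial or cardiac mesoderm or of endoderm, rose in most cases. Of 14 tested, 11 were higher in Rbp2-/- and 13 in Rbp2f/f, where 19.7% and 13.4% of all tested genes were called higher, and 0 were lower. The list median was 1.91 in Rbp2-/- and 2.02 in Rbp2f/f. Foxf1, Pdgfra and Isl1 read 27.1 or less on each array with LIF, under the filter's 28.3, and Evx1 and Mesp1 averaged under it. These genes passed the filter only through arrays without LIF, so their being tested already implies a difference between arrays. The counts and the list median include them. Foxf1, a factor of lateral and extraembryonic mesoderm, read 360.2 and 401.4 in Rbp2-/- without LIF against 22.6 and 22.6 in Rbp2-/- with LIF (3.36 ± 0.33, limma adjusted p = 1.7e-05). Hand1, a factor of the same tissue, rose by 3.64 ± 0.52 in Rbp2-/- (limma adjusted p = 0.00035), and Pdgfra, a receptor of paraxial and cardiac mesoderm, by 2.00 ± 0.30 (limma adjusted p = 0.00043). In Rbp2f/f Bmp4, a ligand that ventralises mesoderm, rose by 2.37 ± 0.28 (limma adjusted p = 5.8e-05), Evx1, a posterior streak factor, by 2.48 ± 0.34 (limma adjusted p = 0.00017) and Snai1, a zinc-finger repressor of E-cadherin, by 1.65 ± 0.25 (limma adjusted p = 0.00045). Gata6, of endoderm and cardiac mesoderm, rose by 2.67 ± 0.33 in Rbp2-/- (limma adjusted p = 0.00011) and 2.65 ± 0.33 in Rbp2f/f (limma adjusted p = 8.4e-05). No list member was called between genotypes in either medium or in the interaction except Flt1 with LIF.

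Markers of other cells were read beside these values, and their part in them was not tested. Of 12 leukocyte and megakaryocyte markers on the array 4 were tested and 0 called by limma on withdrawal, with 0 at an unadjusted p under 0.05 in either genotype, where 23% of all tested genes were called in Rbp2-/- and 20.4% in Rbp2f/f. Of the 12, 3 were under 20 on every array, with Ptprc, the pan-leukocyte antigen, at 8.3 or below, while Kit reached 171.5, Itga2b 114.3 and Csf1r 113.1, all named after their values were seen. Summed feeder fibroblast markers, 8 genes, were 3716.5 and 1454.1 in Rbp2-/- without LIF and 1634.8 and 1535.1 in Rbp2f/f without LIF, against 776.8 and 482.1 in Rbp2-/- with LIF and 549.4 and 331.6 in Rbp2f/f with LIF. Of 6 tested, 3 were called higher in Rbp2-/- and 5 in Rbp2f/f, where 19.7% and 13.4% of all tested genes were. Among those called, Pdgfrb and Postn averaged under the filter's 28.3 with LIF and passed it only through arrays without LIF. Col1a1 alone read 2811.2 on replicate 1 of Rbp2-/- without LIF, most of the sum of 3716.5. Thy1 differed on withdrawal by 0.14 in Rbp2-/- and -0.29 in Rbp2f/f. Col1a1 and Thy1 are named after their values were seen. Summed visceral endoderm markers, 5 genes including Sox17, were 163.7 and 180.7 in Rbp2-/- without LIF and 332.1 and 242.6 in Rbp2f/f without LIF, against 46.4 and 30.2 in Rbp2-/- with LIF and 65.6 and 30.9 in Rbp2f/f with LIF. Both tested members of that list, Sox17 and Foxa2, were called higher in each genotype. Of all tested genes 19.7% were called higher in Rbp2-/- and 13.4% in Rbp2f/f. Sox17 and Foxa2 both averaged under the filter's 28.3 with LIF and passed it only through arrays without LIF. The untested Afp and Apoa1 reached at most 8.8 and 12.9 on any array. Ttr, also untested, read 66.9 and 33.4 in Rbp2-/- without LIF and 29.3 and 5.5 in Rbp2f/f without LIF, against 7.5 or less with LIF.

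For members whose group means spanned more than 1 on the log2 scale, the 3 tested genes with the most similar course over the 8 arrays were found by Pearson's r after quantile normalization. The arrays fall into 4 groups and share their brightness, so the values are descriptions. Hbb-bh1 was most like Tdo2, tryptophan 2,3-dioxygenase, at r = 0.972 (n = 8 arrays), followed by Lman2l (0.965) and Aldh1l1 (0.961). Tdo2 read 355.5 and 198.2 in Rbp2-/- without LIF and 249.9 and 22.4 in Rbp2f/f without LIF, and 1.5 or less on each array with LIF. It thus had the same low Rbp2f/f replicate, though less low than for the globins. Hbb-y and Hba-x were both closest to Rnf213, a large ubiquitin ligase linked to vascular disease in humans (0.905 and 0.928, n = 8 arrays), which read 274.8 on replicate 1 and 183.9 on replicate 2 of Rbp2f/f without LIF. The next for Hbb-y were Mbd6 (0.885) and Lpar2 (0.858), and for Hba-x Krtcap2 (0.897) and Aldh1l1 (0.874).

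Lmo2 was closest to Dock11 (0.989), Azi2 (0.983) and Ghr (0.972), with n = 8 arrays. Like Lmo2, these read lower in replicate 1 than in replicate 2 of each group, Dock11 at 325.4 and 632.2 in Rbp2-/- without LIF and 509.7 and 626 in Rbp2f/f without LIF, against 200.3 and 320.6 in Rbp2-/- with LIF and 274.5 and 458.4 in Rbp2f/f with LIF. Kdr was closest to Rspry1 (0.979), Fam76a (0.973) and Bmper (0.953), a secreted regulator of BMP signalling that read 52.2 and 108.2 in Rbp2-/- without LIF and 64.8 and 52.9 in Rbp2f/f without LIF, against 14.2 and 9 in Rbp2-/- with LIF and 17.8 and 5.6 in Rbp2f/f with LIF. Pecam1 was closest to Etaa1 (0.986), the DNA repair gene Brca1 (0.984) and Mrps22 (0.981), which had their highest reading on replicate 1 of Rbp2-/- with LIF, as Pecam1 did.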

How the data were processed

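Transcripts were measured on 8 Affymetrix mouse genome 430 2.0 arrays, 4 groups of 2. The authors deposited 1 linear intensity for each of 45101 probe sets (34958 with 1 gene symbol, 932 with several, 9211 with none). How they corrected background, summarised probes and scaled arrays is not given in the sources used here. Per the labels' protocols, RNA was column-purified with DNase digestion. The number of arrays limits the precision.

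Each gene was represented by its brightest probe set over the 8 arrays. The test kept 10916 of 18194 genes, those whose mean reached the 40th percentile of gene means (28.3). A gene dim in either medium could pass through arrays of the other alone, which already implies a difference between arrays. Among the named list genes that were lower on withdrawal, Plvap, Esam, Tek, Myb and Angptl4 averaged under this cutoff without LIF. Flt1 averaged just under it with LIF. Values were transformed as log2(value + 16), which understates changes of dim genes. Comparisons between groups used limma 3.58.1 under R 4.3.3 (lmFit on 4 group means, eBayes with trend, 4 residual and 10.9 prior degrees of freedom), with p-values, for both directions, adjusted by Benjamini-Hochberg over all tested genes and a threshold of 0.05. The fit was tested on simulated data. Errors are standard errors. Gene names are those of the platform's annotation, which can be old, promoter windows are RefSeq's for GRCm38.p6, and coordinates are printed for those windows only, because the files name no build.

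The members and gene lists were chosen with earlier results of these data known. Named list genes were those called with the smallest p, up to 4 per withdrawal and 2 per genotype comparison. Alternatives were quantile normalization, median centring, no filter, pseudocounts of 4 and 64, the mean of all probe sets, a replicate block, and fits that omit 1 array.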

Additional observations from a re-analysis of the deposited data

How the results depend on the processing

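The number of tested members called on withdrawal in Rbp2f/f, 3 in the main setting, was the least stable: 0 with no filter on dim genes (18194 genes tested), 7 with the replicate number as a block, and 0 to 5 when each array was left out. On withdrawal in Rbp2-/- the count of 2 ranged from 2 to 3. Between genotypes without LIF and in the interaction the count of 0 ranged from 0 to 1 on leaving out an array. The replicate numbers were not shown to pair the samples: the deviations of same-numbered arrays correlated at -0.083 to 0.262 over 6 pairs of groups, 3 of them above 0.1. With the block Lmo2 was called on withdrawal in both genotypes (limma adjusted p = 0.025 in Rbp2-/- and 0.002 in Rbp2f/f). Over all tested genes, quantile normalization gave 803 higher and 892 lower on withdrawal in Rbp2-/-, against 2149 and 363 in the main setting, and 1533 and 1422 in Rbp2f/f, against 1465 and 761. It called 0 genes between genotypes, against 28 with LIF and 3 without, as did the fit with no filter. The causes of these changes were not tested.

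Directions turned under scaling for Gata1 and Lmo2 between genotypes with LIF (0.059 and 0.007 after median centring) and for Gata1 on withdrawal in Rbp2-/- (-0.087 after quantile normalization, -0.189 after median centring). The other reversals came from leaving out an array, and none of the differences concerned was called in the main setting. A fit without an array leaves 1 in its group, assumed to vary like the others, so calls gained there are no evidence on genotype or withdrawal. With each array left out, log2 differences between genotypes with LIF ranged from -1.09 to 0.54 for Lmo2, -0.23 to 0.72 for Kdr and -0.86 to 1.44 for Pecam1. Without LIF they ranged from -1.23 to 3.56 for Hbb-bh1, -3.34 to 0.90 for Hbb-y, -1.87 to 1.16 for Hba-x, -0.56 to 0.052 for Gata1, -1.54 to 0.087 for Lmo2 and -0.037 to 0.65 for Etv2. On withdrawal in Rbp2-/- they ranged from -0.067 to 0.54 for Gata1, -0.41 to 0.19 for Etv2 and -1.65 to 0.64 for Pecam1. For the interaction they ranged from -1.27 to 3.52 for Hbb-bh1, -3.36 to 0.88 for Hbb-y, -2.02 to 1.00 for Hba-x, -0.33 to 0.28 for Gata1, -1.26 to 0.37 for Lmo2, -0.09 to 0.95 for Kdr and -0.062 to 2.23 for Pecam1. Of 600 refits of single members, 526 kept direction and side of the threshold. Values under about 20 are near the floor of the arrays, so small changes of Tal1, Cdh5 and the globins with LIF are not resolved, and background correction and slide could not be varied.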

Other observations

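Lmo2 and Pecam1 ran mostly opposite to each other over the 8 arrays, with a Pearson r of -0.88 after quantile normalization. This was the most negative value of any pair of members and was picked after the values were seen. It is given as a description because the arrays share groups and brightness. On replicates 1 and 2 of Rbp2-/- with LIF, Lmo2 read 5.4 and 50.3 where Pecam1 read 246.9 and 37.6. On those of Rbp2-/- without LIF, Lmo2 read 27.9 and 119.1 where Pecam1 read 88.4 and 51.0. On those of Rbp2f/f without LIF, Lmo2 read 97.1 and 127.1 where Pecam1 read 32.1 and 5.6. In Rbp2f/f with LIF both genes were higher on replicate 2, Lmo2 at 18.4 and 44.6 and Pecam1 at 75.0 and 87.5. Hbb-y and Hba-x correlated at 0.968 and Hbb-bh1 and Hba-x at 0.911 over the same arrays, values set mainly by the arrays without LIF, while Tal1 correlated with the 3 globins at 0.297 to 0.38.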
